A study of Mus musculus with 28 samples.

Results

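The proteasome genes of the mouse were followed in single whole embryos of the CD1 strain in which the genotype at Ctcf, the gene of a chromatin insulator protein, had been varied. CPM are the reads of a gene relative to the scaled size of its library, which was 0.93 to 1.17 times its reads. Genes were taken whose symbol is Psma, Psmb, Psmc, Psmd, Psme, Psmf or Psmg followed by a number, with pseudogenes left out. They were kept where 3 or more embryos of a stage reached 10 CPM. This gave 46 genes of the 48 such symbols in the annotation, out of 17995 genes with a value at either stage. All 46 passed the filter at both stages, and the other 2, Psma8 and Psmb11, reached at most 3.58 and 9.83 CPM. The gene lowest in its best blastocyst was Psmg4, which reached 13.97 CPM and passed in 7 blastocysts. By role the genes were 7 of the alpha ring, 7 of the beta ring, 3 inducible catalytic subunits, 6 ATPases of the base, 11 non-ATPase regulatory subunits, 3 chaperones of base assembly, 4 activators, 1 inhibitor and 4 chaperones of core assembly.

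The blastocyst groups were 3 embryos labelled WT_flfl, 4 labelled het, 4 labelled M_KO and 3 labelled MZ_KO. The morula groups were 3 labelled het, 4 labelled del and 6 labelled MZKO. These codes stand in the labels as genotypes and are not spelled out there, nor is the driver of the deletion or which embryos shared a mother. By the names of the deposited data, the morulae were of embryonic day E2.5 and the blastocysts of E3.5. In the titles the MZ_KO and M_KO blastocysts share 1 prefix and the WT_flfl and het blastocysts another. MZ_KO against M_KO is thus the comparison within a prefix among those with MZ_KO. The MZKO morulae share 1 prefix and the het and del morulae another. Genotype and prefix therefore cannot be told apart in MZKO against het or del, nor in MZ_KO against WT_flfl or het. All blastocysts analysed were sequenced in batch 1 and all morulae in batch 2, so stage and batch cannot be told apart. The p-values set a difference of group means against the spread between embryos within groups. Spread between mothers is not covered, since the labels do not give them.

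Ctcf itself was measured at 2.92, 4.22 and 3.72 CPM in the MZ_KO blastocysts and at 53.2 to 102 CPM in the 11 others. In morulae it lay between 0 and 8.68 CPM in MZKO, between 0 and 5.81 CPM in del and between 26.1 and 54.6 CPM in het. Totals ran from 7377302 to 27883060 reads per blastocyst and from 12136606 to 20414013 reads per morula, except del 6 with 1635553. All 6 trophectoderm markers reached 10 CPM in blastocysts and 5 of 6 in morulae, and 0 of the 6 granulosa or cumulus cell markers reached 10 CPM at either stage. The blood cell markers (6 of 8 had a value in blastocysts and 5 in morulae) summed to 34483 CPM in WT_flfl 1 and 31481 CPM in het 6, against 26.3 to 11580 CPM in the other blastocysts, and to 15500 CPM in morula het 1 and 4082 CPM in morula MZKO 1, against 7.41 to 1306 CPM in the other morulae. Counts of calls are given with and without these libraries.

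The proteasome degrades proteins that carry chains of ubiquitin. A barrel-shaped core particle, built of alpha rings that gate it and beta rings that hold the proteolytic sites, is capped by a regulatory particle whose base of ATPases unfolds the substrate and whose non-ATPase subunits bind it and remove its ubiquitin. Dedicated chaperones assemble both, immune-inducible beta subunits can replace the constitutive catalytic ones, and alternative activators can cap the core. Because most subunits occur in fixed numbers per particle, their transcripts are commonly found to move together, and in other mammalian cells the transcription factors Nfe2l1 and Nfe2l2 raise them through antioxidant response elements.

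The sequences printed here are the windows before the RefSeq starts of 4 genes. Of these, 2 fell in MZ_KO blastocysts (Psmd1 and Psmd6) and 2 rose (Psmd12 and Psma5). Any part of these sequences in the changes was not tested. They are taken from RefSeq (GRCm38.p6), 250 bases each, 5′ to 3′ on the strand of the gene. Psmd1 lies at chr1:86064369-86064618 on the + strand, Psmd6 at chr14:14120946-14121195 on the - strand, Psmd12 at chr11:107479278-107479527 on the + strand and Psma5 at chr3:108256676-108256925 on the + strand. Capitals mark matches to TGACNNNGC (the core of the antioxidant response element), to CCGGAAG (the core bound by ETS factors) and to the CTCF core with at most 1 mismatch, on either strand; none of the marked matches overlaps another.
Psmd1: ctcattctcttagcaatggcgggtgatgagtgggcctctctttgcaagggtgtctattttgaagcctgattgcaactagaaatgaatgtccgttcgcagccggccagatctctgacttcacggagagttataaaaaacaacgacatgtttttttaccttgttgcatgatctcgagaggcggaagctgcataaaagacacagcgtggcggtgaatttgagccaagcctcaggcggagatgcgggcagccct
Psmd6: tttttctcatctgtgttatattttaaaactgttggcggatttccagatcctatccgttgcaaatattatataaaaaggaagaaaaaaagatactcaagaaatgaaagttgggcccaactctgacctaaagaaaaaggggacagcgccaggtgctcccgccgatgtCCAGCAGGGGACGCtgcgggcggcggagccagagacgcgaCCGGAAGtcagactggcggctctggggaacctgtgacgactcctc
Psmd12: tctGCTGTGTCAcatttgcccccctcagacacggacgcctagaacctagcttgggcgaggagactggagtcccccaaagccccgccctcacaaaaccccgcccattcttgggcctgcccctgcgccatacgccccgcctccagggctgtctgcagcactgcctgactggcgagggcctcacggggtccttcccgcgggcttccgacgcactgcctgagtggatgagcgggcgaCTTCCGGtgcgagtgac
Psma5: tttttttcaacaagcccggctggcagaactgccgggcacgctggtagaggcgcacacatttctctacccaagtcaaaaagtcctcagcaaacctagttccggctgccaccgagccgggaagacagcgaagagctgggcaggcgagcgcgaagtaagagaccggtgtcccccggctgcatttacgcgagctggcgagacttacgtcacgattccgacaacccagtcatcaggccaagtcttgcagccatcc
The window of Psmd12 held 1 match to the antioxidant response element core, starting 247 bases before the start, and 1 to the ETS core. That of Psmd6 held 1 match to the ETS core and 1 to the CTCF core with 1 mismatch, starting 85 bases before the start. Those of Psmd1 and Psma5 held none of these letters. GENCODE M21 starts some of these genes farther upstream, so that 232 of the 250 bases for Psmd1, 39 for Psmd6, 44 for Psmd12 and 0 for Psma5 lie inside the gene as it is placed there.

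Windows of 39 of the 46 genes, matched by symbol, were searched. Psmb1, Psmb2, Psmb7, Psmc3, Psmd3, Psmd7 and Psmg2 were not among them. All of these but Psmg2 were called higher in MZ_KO blastocysts, so the shares leave out called genes. The antioxidant response element core stood in 5 of these 39 genes (12.8%) and in 10.2% of all 32851 windows. The ETS core stood in 12 of the 39 (30.8%) and in 6.91% of all windows. These 12 were Psma6, Psmc1, Psmc2, Psmc6, Psmd2, Psmd4, Psmd6, Psmd11, Psmd12, Psme3, Psme4 and Psmg1, both called and uncalled genes. CCAAT stood in 13 of the 39 (33.3%) and in 33.8% of all. The CTCF core stood in 1 (Psmc4) and in 0.177% of all, and with at most 1 mismatch in 3 (Psmc4, Psme3 and Psmd6) and in 1.3% of all. The ETS core and the mismatch were searched after the windows had been read, all windows include genes that these embryos do not express, and a match is a description of letters.

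In wild-type-labelled blastocysts the constitutive proteasome was the most abundant form and the inducible subunits were low. Per kilobase of transcript, the mean of the 3 WT_flfl embryos ran from 222 to 938 CPM per kb over the alpha ring, from 237 to 1017 CPM per kb over the beta ring, from 149 to 583 CPM per kb over the base ATPases and from 205 to 530 CPM per kb over the non-ATPase subunits. Psmb6, a catalytic beta subunit, was highest at 1017 ± 79.0 CPM per kb (SD, n = 3), and Psma7 of the alpha ring followed at 938 ± 90.9 CPM per kb, closer than their spread. Assembly chaperones were lower, at 28.9 to 57.3 CPM per kb for the base and 21.6 to 121 CPM per kb for the core. The activators ran from 10.4 CPM per kb for Psme4, which caps the core and is known for histone degradation, to 99.5 CPM per kb for Psme3, and the inhibitor Psmf1 lay at 18.1 CPM per kb. Psmb8, Psmb9 and Psmb10, the inducible replacements of Psmb5, Psmb6 and Psmb7, lay at 3.24, 7.67 and 5.06 CPM per kb.

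**Figure D1:**
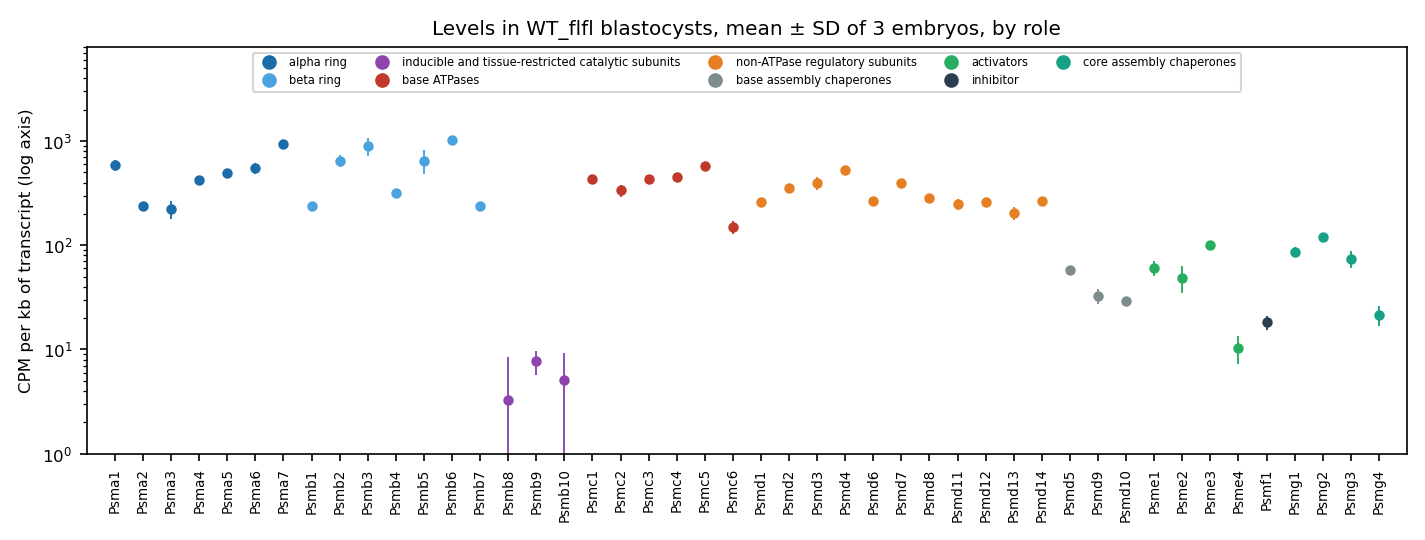
Mean CPM per kilobase of transcript on a log axis for each of the 46 genes in WT_flfl blastocysts, with the SD over 3 embryos as bars and colours for the role; lower bars run off the axis where the SD exceeds the mean. The rings, ATPases and non-ATPase subunits lie above 149 CPM per kb, the inducible subunits at or below 7.67 CPM per kb.

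The subunits of the particle also varied less between embryos of a group than the median of all genes tested. The median within-group SD on the log2(CPM + 1) scale was 0.16 for the alpha ring, 0.19 for the beta ring, 0.15 for the base ATPases and 0.16 for the non-ATPase subunits in blastocysts. It was 0.40, 0.33, 0.43 and 0.40 in the same order in morulae. The median over all genes tested was 0.41 in blastocysts and 0.69 in morulae, and genes were not matched for level. The inducible subunits varied more, with a median SD of 0.67 in blastocysts and 1.49 in morulae.

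Psmd1 and Psmd6 fell in MZ_KO blastocysts against each of the other blastocyst groups, and Psmb7, Psmd12 and Psmc2 rose against each. Most other calls were higher in MZ_KO and came from the comparison with het. Against het, 18 of the 46 genes rose and 3 fell (45.7%, where 17.9% of all 9585 genes tested were called), by limma on log2(CPM + 1) with Benjamini-Hochberg adjustment over all genes and a threshold of 0.05. Of all genes 7.02% rose and 10.8% fell. Against WT_flfl, 8 rose and 3 fell (23.9%, background 13.2%, of which 4.84% rose and 8.36% fell). Against M_KO, 3 rose and 2 fell (10.9%, which is near the background of 11.8%, of which 3.74% rose and 8.09% fell). The median log2 fold change of the 46 genes was 0.37 against het, 0.27 against WT_flfl and 0.20 against M_KO, where those of all genes were -0.06, -0.05 and -0.03. The 3 comparisons share the same 3 MZ_KO embryos. Where a gene is said below not to overlap between MZ_KO and the other blastocysts, that is a description. The share of all genes that lie apart in this way is not given here, so it has no background.

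The counts depend on single embryos. Against WT_flfl the 11 calls became 3 without MZ_KO 2, 7 without MZ_KO 6, 3 without WT_flfl 1, 4 without WT_flfl 7 and 6 without WT_flfl 9. Against het the 21 became 13 without MZ_KO 2. Against M_KO the 5 became 2 without MZ_KO 2, 3 without MZ_KO 6, 2 without MZ_KO 7, 3 without M_KO 1 and 3 without M_KO 4. With WT_flfl 1 and het 6 left out together, 2 rose and 2 fell against WT_flfl, 10 rose and 2 fell against het, and 1 rose and 2 fell against M_KO. Fewer embryos lower the power for every gene. The shares of all genes called in these fits are not given here, so whether these genes lost more calls than others cannot be told. In whole embryos, fewer cells of a type and less RNA per cell cannot be told apart. The 6 trophectoderm markers summed to 3729 to 4916 CPM in MZ_KO against 4575 to 9181 CPM in the other blastocysts, the 4 epiblast and inner cell mass markers to 693 to 900 CPM against 379 to 683 CPM, and their part in the result was not tested.

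**Figure D2:**
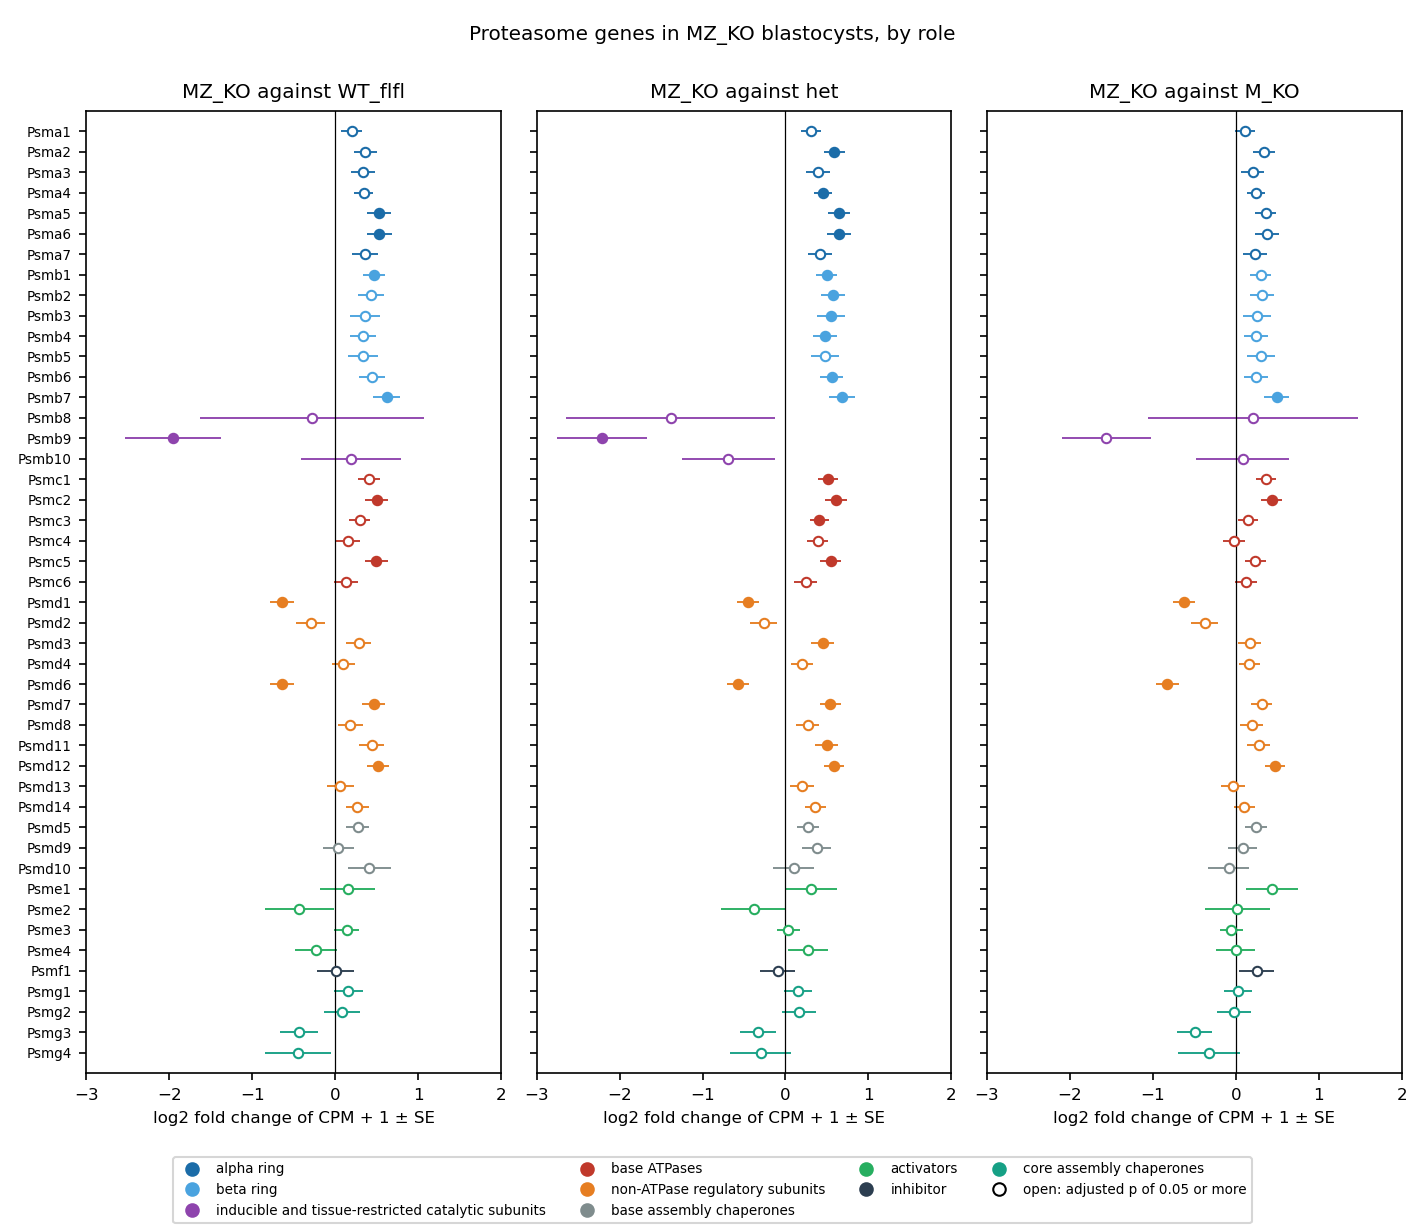
Log2 fold change of CPM + 1 with its SE (horizontal axis) for the 46 genes (vertical axis, coloured by role) in MZ_KO against WT_flfl, het and M_KO blastocysts; filled points passed an adjusted p of 0.05 by limma. All 7 alpha and 7 beta ring genes lie right of zero in each panel, Psmd1 and Psmd6 lie left of it as filled points, and Psmb9 lies farthest left.

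Psmd1 encodes the large scaffold of the base, on which the ubiquitin receptor Adrm1 docks, and lies at chr1:86064387-86139151 (GRCm38). It stood at 451, 554 and 570 CPM in the MZ_KO embryos. The M_KO embryos had 712, 702, 933 and 899 CPM, the WT_flfl embryos 770, 848 and 825 CPM, and the het embryos 762, 749, 637 and 711 CPM. Every MZ_KO embryo was below every other blastocyst. Psmd1 fell by 0.64 on the log2 scale against WT_flfl (SE 0.14, adjusted p = 0.00732), fell by 0.62 against M_KO (SE 0.13, adjusted p = 0.00628) and fell by 0.45 against het (SE 0.13, adjusted p = 0.0287), in limma's fit. The last call was lost without MZ_KO 2, without het 3, without het 5 and in a fit of only the 2 groups, with adjusted p up to 0.134.

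Psmd6 encodes a subunit of the lid, the part of the regulatory particle that carries the deubiquitinase, and lies at chr14:14112174-14120984. It stood at 216, 226 and 272 CPM in MZ_KO, at 412, 352, 486 and 443 CPM in M_KO, at 364, 363 and 382 CPM in WT_flfl and at 379, 358, 308 and 370 CPM in het. Again no MZ_KO embryo overlapped another group. Psmd6 fell by 0.83 on the log2 scale against M_KO (SE 0.14, adjusted p = 9.92e-04), fell by 0.64 against WT_flfl (SE 0.15, adjusted p = 0.0086) and fell by 0.57 against het (SE 0.14, adjusted p = 0.00879), in limma's fit. These 3 calls were kept when any embryo was left out, under every scaling and without WT_flfl 1 and het 6. Between 3093 and 11708 reads per blastocyst lay behind the Psmd6 values.

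Within the regulatory particle the proportions of the transcripts shifted. Psmd1 made 6.75 to 8.31% of the summed CPM of the other 10 non-ATPase subunits in MZ_KO embryos, against 10.96 to 13.66% in the other 11 blastocysts. Psmd6 made 3.10 to 3.80%, against 5.42 to 6.53%. Psmd12, another lid subunit, made 9.74 to 11.2%, against 7.04 to 8.19%. In each of the 3 shares no MZ_KO embryo overlapped another blastocyst. The ratio of summed core to summed regulatory particle CPM did overlap, at 0.82 to 1.02 in MZ_KO and 0.71 to 0.87 elsewhere. These shares are ratios within a library, so they show unequal change and do not depend on the scaling; they were chosen with the changes of these genes known and are given with no test.

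**Figure D3:**
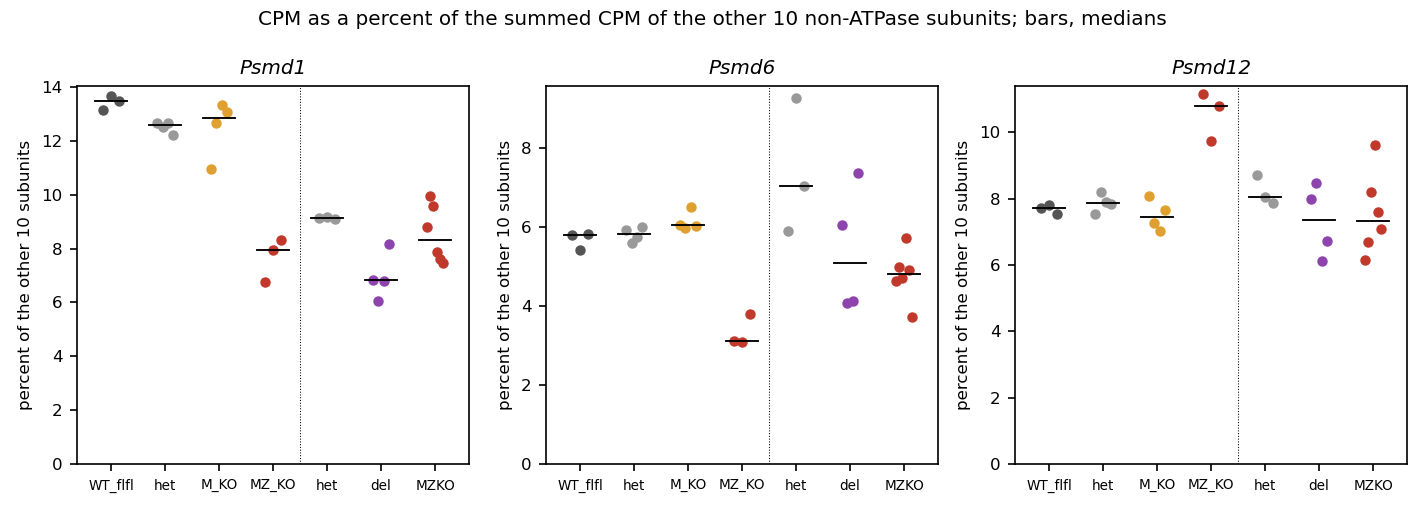
CPM of Psmd1, Psmd6 and Psmd12, each as a percent of the summed CPM of the other 10 non-ATPase subunits (vertical axes from 0), per embryo by group, blastocysts left of the dotted line and morulae right of it; bars are medians. MZ_KO blastocysts lie apart from the other blastocysts in all 3 panels, and in morulae del lies below het for Psmd1, MZKO lies below het for Psmd6, and the other pairs of groups overlap.

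The other non-ATPase subunits went the other way or did not pass. Of the 11, 4 rose and 2 fell against het, 2 rose and 2 fell against WT_flfl, and 1 rose and 2 fell against M_KO. Psmd12 rose in all 3 comparisons. It stood at 717, 668 and 724 CPM in MZ_KO and at 414 to 552 CPM in the other 11 blastocysts, with no overlap, and its log2 fold change was 0.58 against het (SE 0.12, limma adjusted p = 0.00369), 0.52 against WT_flfl (SE 0.13, limma adjusted p = 0.0147) and 0.47 against M_KO (SE 0.12, limma adjusted p = 0.0189). Without MZ_KO 2 or without MZ_KO 7 the call against M_KO was lost, and without WT_flfl 1 that against WT_flfl, with adjusted p up to 0.0589. Psmd7, which holds the deubiquitinase Psmd14 in the lid, stood at 951, 837 and 813 CPM in MZ_KO and at 521 to 758 CPM elsewhere. It rose against het (0.54, SE 0.13, limma adjusted p = 0.00903) and WT_flfl (0.46, SE 0.14, limma adjusted p = 0.0364), and the latter call was lost when any of the 6 embryos but MZ_KO 7 was left out. The lid subunits Psmd3 (0.45) and Psmd11 (0.50) rose against het. The call of Psmd3 was lost without MZ_KO 6, MZ_KO 7, het 3, het 5 or het 6, that of Psmd11 without MZ_KO 2, MZ_KO 6 or het 6, and both without WT_flfl 1 and het 6, which left 2 higher and 2 lower against het and 0 higher and 2 lower against WT_flfl. Psmd2, the second scaffold of the base, did not pass, with -0.26, -0.30 and -0.37 against het, WT_flfl and M_KO.

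Of the 6 ATPases, 4 rose against het (Psmc1, Psmc2, Psmc3 and Psmc5), 2 against WT_flfl (Psmc2 and Psmc5) and 1 against M_KO (Psmc2), and none fell. Without WT_flfl 1 and het 6 these counts became 3, 0 and 0, and the call of Psmc3 was also lost without MZ_KO 6 or MZ_KO 7. Psmc2 stood at 861, 861 and 806 CPM in MZ_KO and at 491 to 709 CPM in the 11 others, with no overlap. Its log2 fold change was 0.61 against het (SE 0.13, limma adjusted p = 0.00429), 0.50 against WT_flfl (SE 0.14, limma adjusted p = 0.0248) and 0.43 against M_KO (SE 0.13, limma adjusted p = 0.0389). The call against M_KO was lost when any of the MZ_KO embryos, M_KO 1, M_KO 3 or M_KO 4 was left out, and that against WT_flfl without MZ_KO 2, MZ_KO 6, WT_flfl 1 or WT_flfl 9. Psmc5 stood at 1170, 1117 and 962 CPM in MZ_KO, at 817 to 1069 CPM in M_KO and at 619 to 832 CPM in WT_flfl and het. It rose against het (0.54, SE 0.13, limma adjusted p = 0.00823) and WT_flfl (0.50, SE 0.14, limma adjusted p = 0.0253), and its M_KO values overlapped those of MZ_KO. Leaving out MZ_KO 2, MZ_KO 6, WT_flfl 1 or WT_flfl 7 ended its call against WT_flfl.

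In the alpha ring, which forms the gate of the core, 4 of 7 genes rose against het (Psma2, Psma4, Psma5 and Psma6), 2 against WT_flfl (Psma5 and Psma6) and 0 against M_KO. Without WT_flfl 1 and het 6 these became 4, 1 and 0, and without MZ_KO 2 the call of Psma4 against het was lost. Psma5 stood at 1046, 817 and 778 CPM in MZ_KO and at 458 to 735 CPM in the others. It rose by a log2 fold change of 0.64 against het (SE 0.13, limma adjusted p = 0.00338) and 0.53 against WT_flfl (SE 0.14, limma adjusted p = 0.0208). Psma6 stood at 870, 772 and 842 CPM in MZ_KO and at 424 to 755 CPM in the others, and rose by 0.64 against het (SE 0.14, limma adjusted p = 0.00536) and 0.53 against WT_flfl (SE 0.15, limma adjusted p = 0.029). Neither gene overlapped between MZ_KO and the other blastocysts. Without MZ_KO 2, WT_flfl 1 or WT_flfl 7 both calls against WT_flfl were lost, and that of Psma6 also without MZ_KO 7.

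In the beta ring 6 of 7 genes rose against het, all but Psmb5, the subunit with chymotrypsin-like activity (0.48, limma adjusted p = 0.0606). Without WT_flfl 1 and het 6, Psmb7 alone of the 7 passed against het, and Psmb1, Psmb2, Psmb3, Psmb4 and Psmb6 had limma adjusted p from 0.0507 to 0.115. All of these 5 calls were also lost without MZ_KO 2, that of Psmb3 also without MZ_KO 6, het 3 or het 6, and that of Psmb4 when any of the 7 embryos but het 8 was left out. Against WT_flfl 2 rose, Psmb1 and Psmb7, and against M_KO 1, Psmb7; without WT_flfl 1 and het 6 these became 1 and 0. Psmb7, which carries the trypsin-like site, had the largest increase among the called genes in all 3 comparisons. It stood at 493, 389 and 391 CPM in MZ_KO and at 219 to 333 CPM in the others, with no overlap. Its log2 fold change was 0.68 against het (SE 0.15, limma adjusted p = 0.00629), 0.62 against WT_flfl (SE 0.16, limma adjusted p = 0.0201) and 0.49 against M_KO (SE 0.15, limma adjusted p = 0.0466). The last of these was lost when any of the 7 embryos compared was left out, and that against WT_flfl without MZ_KO 2, WT_flfl 7 or WT_flfl 9. Psmb1 stood at 671, 525 and 542 CPM in MZ_KO and at 354 to 511 CPM in the others, and rose by 0.50 against het (SE 0.13, limma adjusted p = 0.0135) and 0.47 against WT_flfl (SE 0.14, limma adjusted p = 0.0319). Without MZ_KO 2 both calls of Psmb1 were lost, and without any of the WT_flfl embryos that against WT_flfl.

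Sequence shared with other genes touches some of these values, since the kit does not mark strand. Psmb7 shares 405 exon bases, 11.8% of its exons, with Nek6 on the opposite strand. Nek6 stood at 100 to 136 CPM in MZ_KO, where Psmb7 was higher, and at 130 to 281 CPM in the other blastocysts. Psmb5 has a processed pseudogene, Gm3375, that matches 88.4% of its transcript at 98.9% identity and reached 14.4 CPM in blastocysts and 174 CPM in morulae. In all, 11 of the genes have 21 such near-identical transcripts of other genes (at least 90% identity over at least 50% of the transcript), of which 2 have a value in these tables, so values of these genes are uncertain where reads could be split.

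**Figure D4:**
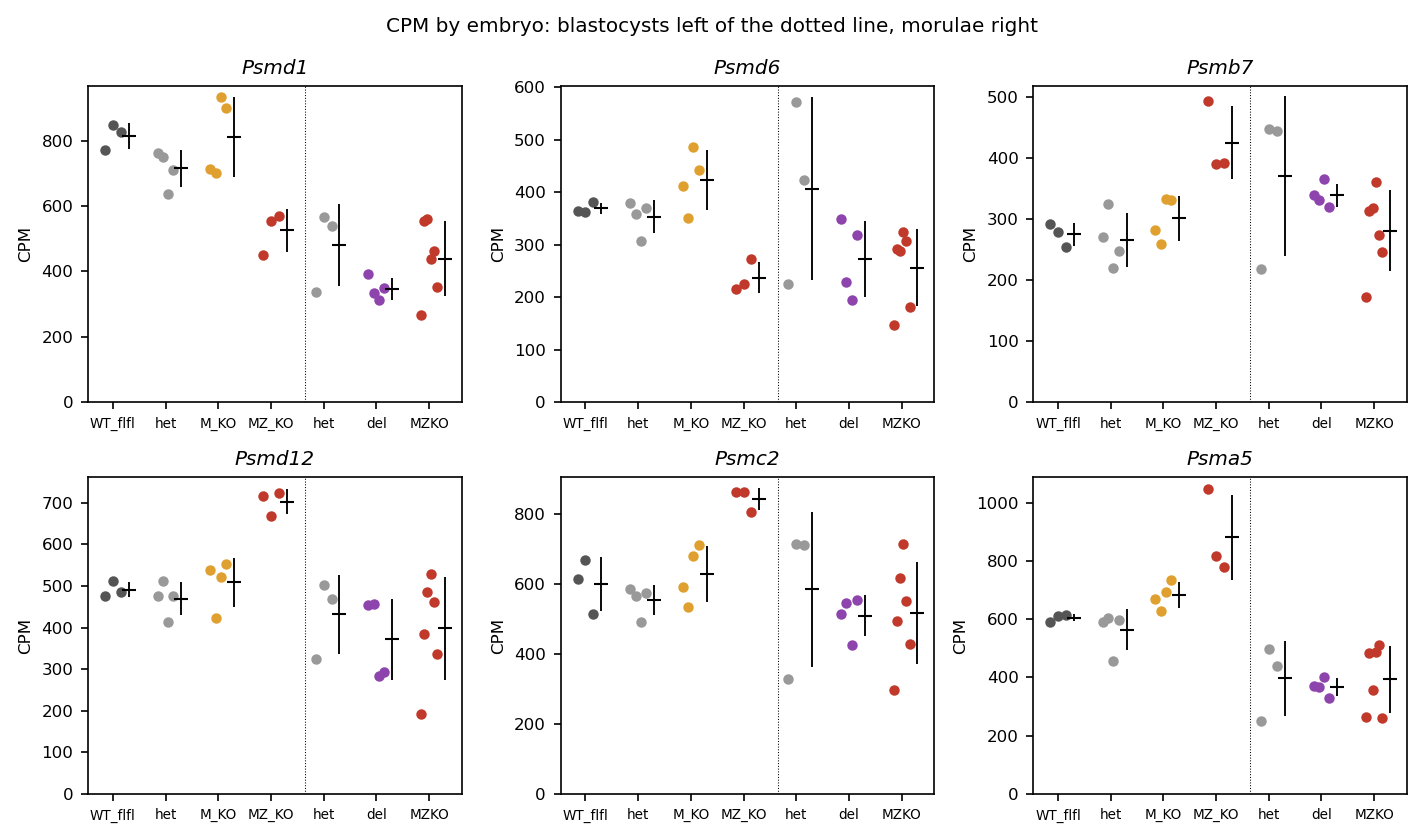
CPM of 6 genes (vertical axes from 0) in every embryo, with the mean ± SD of each group beside its points, blastocysts left of the dotted line and morulae right. In blastocysts the 3 MZ_KO points lie below all others for Psmd1 and Psmd6 and above all others for Psmb7, Psmd12, Psmc2 and Psma5, and the morula groups overlap.

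Of the 3 inducible subunits, all at low levels, only Psmb9 was called. The log2 fold change was above 0 for 0 of the 3 against het, 1 against WT_flfl and 2 against M_KO. Psmb9, which replaces Psmb6 in the immune form of the core, stood at 1.54, 1.79 and 2.36 CPM in MZ_KO. It stood at 10.4, 7.35, 12.5 and 3.02 CPM in M_KO, at 13.2, 7.97 and 9.89 CPM in WT_flfl and at 9.31, 6.28, 23.8 and 16.1 CPM in het. No MZ_KO embryo overlapped another, although M_KO 5 came close. Psmb9 passed the filter only through 5 blastocysts, each outside MZ_KO, so the filter itself favoured a lower level in MZ_KO. Its calls, which count among the genes that fell against het and WT_flfl, are therefore a description only. Psmb9 fell by 2.21 against het (SE 0.54, limma adjusted p = 0.01) and was -1.96 against WT_flfl (SE 0.58, limma adjusted p = 0.0337), both past the threshold, and -1.56 against M_KO (SE 0.54, limma adjusted p = 0.0716), which was not. Without WT_flfl 1 and het 6 neither call held (adjusted p = 0.0538 against het and 0.114 against WT_flfl), nor with voom weights, and leaving out any of the 6 embryos compared but MZ_KO 7 ended the call against WT_flfl.

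Psmb8 and Psmb10 did not pass in any comparison. Psmb8 was listed at 0 in 4 blastocysts and was highest in het 6 at 33.1 CPM and WT_flfl 1 at 15.1 CPM. Psmb10 was likewise highest in het 6 at 19.5 CPM and WT_flfl 1 at 12.6 CPM, with MZ_KO 2 at 10.7 CPM. Both libraries were also high in the 4 leukocyte markers, all of which had a value, which mark cells that make the inducible core; they summed to 574 CPM in het 6 and 161 CPM in WT_flfl 1, but MZ_KO 7 had 160 CPM of these markers and 5.602, 2.36 and 4.98 CPM of Psmb8, Psmb9 and Psmb10. The part of such cells in these values was not tested. Psmb9 shares 212 exon bases with Tap1, which reached at most 16.5 CPM in blastocysts.

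The remaining roles had no call in any of the 3 comparisons. The 4 activators ran from -0.38 to 0.31 against het. Psme1 and Psme2, which form the interferon-inducible cap, ran from 30.4 to 92.2 CPM and from 18.4 to 66.0 CPM over all blastocysts, with the groups overlapping. Psme3 ran from 236 to 367 CPM, Psme4 from 35.1 to 89.3 CPM and the inhibitor Psmf1 from 43.7 to 79.3 CPM. The base chaperones Psmd5, Psmd9 and Psmd10 ran from 0.10 to 0.38 against het, and the core chaperones Psmg1, Psmg2, Psmg3 and Psmg4 from -0.33 to 0.16.

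M_KO embryos did not differ from WT_flfl or het in any of the 46 genes after adjustment, where the background was 0 of all genes (0%) in both comparisons. At an unadjusted p under 0.05, limma had 0 of the 46 and 494 of all genes in M_KO against WT_flfl, and 7 of the 46 and 638 of all genes in M_KO against het, and voom called 0 genes in each. The medians of the 46 genes were 0.10 and 0.19, with 35 and 40 genes above 0, where those of all genes were -0.008 and 0.001. Het against WT_flfl likewise had 0 calls (0%), 0 of the 46 and 187 of all genes at an unadjusted p under 0.05 by limma, and 0 calls by voom. The median of the 46 genes was -0.10 in het against WT_flfl, with 7 genes above 0, where that of all genes was -0.01. A p above the threshold in groups of 3 and 4 embryos does not show that the levels were alike.

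In morulae no proteasome gene passed in any comparison. MZKO against het called 48 genes in all (0.482%), MZKO against del 18 (0.181%) and del against het 1 (0.01%), each with 0 of the 46, by limma. At an unadjusted p under 0.05, 1 of the 46 stood in each, where all genes had 862, 821 and 503, and voom called 0 of the 46 in each. The medians of the 46 genes were -0.07, -0.05 and -0.06. The spread was wider than in blastocysts, and 2 libraries stood apart. Core particle genes summed to 0.41% of the scaled library size in MZKO 1 and 0.42% in het 1, against 0.51 to 0.83% in the other 11 morulae. That size was 1.17 and 1.10 times the reads in these 2, against 0.93 to 1.05 in the others, so shares of the reads lie closer. Both libraries also detected the most genes, 16343 and 16329, against 12158 to 15387.

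Psmd1 and Psmd6 in morulae overlapped between groups. Psmd1 stood at 267, 555, 560, 438, 463 and 352 CPM in MZKO, at 391.5, 333, 314 and 350 CPM in del and at 338, 566 and 538 CPM in het. Psmd6 ran from 147 to 325 CPM in MZKO (median 290 CPM), stood at 350, 229, 195 and 319 CPM in del, and at 225, 572 and 423 CPM in het. For MZKO against het the log2 fold changes were -0.14 (SE 0.27, limma adjusted p = 0.94) and -0.62 (SE 0.33, limma adjusted p = 0.636). As a share of the other 10 non-ATPase subunits, Psmd1 made 7.47 to 9.97% in MZKO, 6.06 to 8.17% in del and 9.12 to 9.17% in het. Psmd6 made 3.72 to 5.72% in MZKO, below the 5.91 to 9.28% of het, and 4.08 to 7.39% in del.

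Psmb8, Psme1 and Psme2 were highest in the 2 morulae with the highest blood cell markers, and Psmb10 and Psmb9 followed them less. Psmb8 stood at 58.6 CPM in het 1 and 44.4 CPM in MZKO 1, against at most 15.2 CPM in the others. Psme2 stood at 104 and 103 CPM in these embryos and at most at 51.2 CPM in the others, and Psme1 at 152 and 114 CPM and at most at 91.8 CPM. Psmb9 was highest in het 1 at 25.4 CPM, but MZKO 1 at 10.9 CPM was below MZKO 8 at 18.4 CPM, and Psmb10 was highest in del 6 at 47.0 CPM, with 40.3 CPM in het 1 and 36.1 CPM in MZKO 1. Leukocyte markers summed to 829 CPM in het 1 and 255 CPM in MZKO 1, yet to 377 CPM in del 2, where Psmb8 was 13.3 CPM and Psme2 14.99 CPM. Their part was not tested.

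The difference between stages was that of MZ_KO against het in blastocysts minus MZKO against het in morulae. It was tested over 8572 genes, of which 1.61% were called, and over these none of the 46. Both comparisons cross title prefixes, so genotype and prefix cannot be told apart in it. By limma at an unadjusted p under 0.05 there were 12 of the 46 and 1521 of all genes, and voom called 0 of the 46. The difference was above 0 for 38 of the 46, with a median of 0.48 where that of all genes was 0.01. Psmb7 had the largest positive difference at 1.04 (SE 0.32, limma adjusted p = 0.087). Without morula het 1 the count was 13 and without both morula het 1 and MZKO 1 it was 14, of which 13 were higher in blastocysts, led by Psmg3 (1.28, SE 0.36, limma adjusted p = 0.0276) and Psmb7 (1.25, SE 0.23, limma adjusted p = 0.00265), and Psmb9 was lower (-3.83). The 2 morulae were left out after the data had been seen. The background of 1.61% belongs to the fit of all embryos. That of the fits without these morulae is not given here, so the counts of 13 and 14 have no background.

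**Figure D5:**
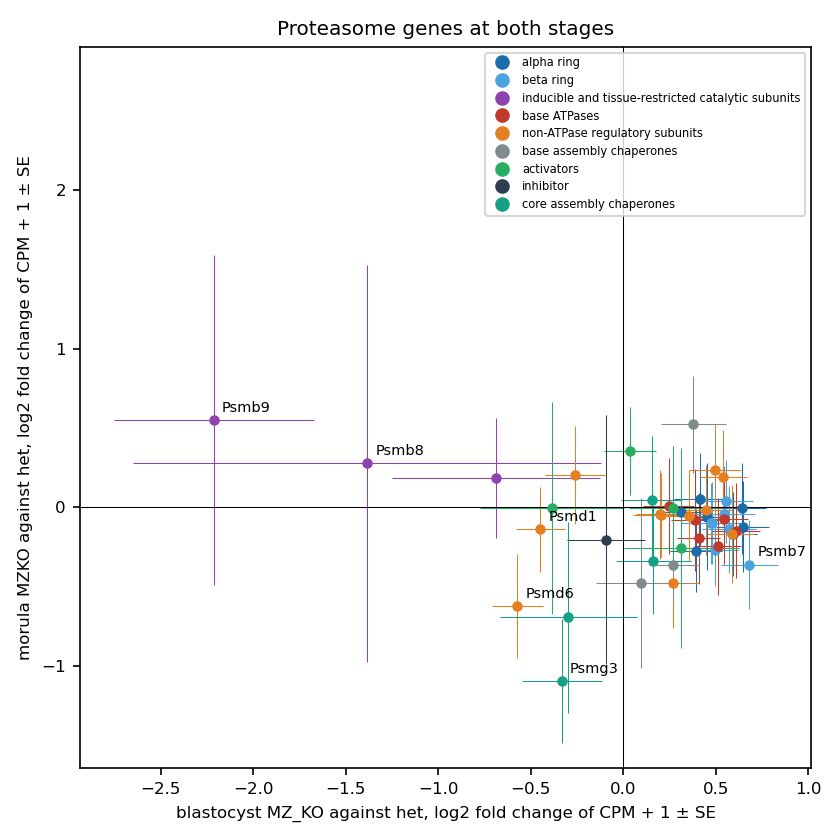
Log2 fold change of CPM + 1 with SE for the 46 genes in blastocyst MZ_KO against het (horizontal axis) and morula MZKO against het (vertical axis), coloured by role. Most points lie between 0 and 0.68 on the horizontal axis and scatter about 0 on the vertical one, where the bars are longer, and Psmd6 lies below 0 on both.

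Of the other genes of the pathway, 31 on a list of ubiquitin genes, activating enzymes, bound factors, shuttle receptors, Vcp cofactors and transcription factors were tested. In MZ_KO 4 rose and 3 fell against het (22.6%), 3 rose and 1 fell against WT_flfl (12.9%), and 4 rose and 2 fell against M_KO (19.4%), where 17.9%, 13.2% and 11.8% of all genes were called in the same order. Against het the 7 calls became 4 without het 5 and 4 without het 6, and against M_KO the 6 became 2 without MZ_KO 2. Those called in 2 or more comparisons were Sem1, Ubb, Rps27a, Ubqln4 and Uba1. The list was chosen with results of these embryos known.

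Sem1, a small subunit of the lid, stood at 258, 186 and 229 CPM in MZ_KO and at 116 to 169 CPM in the other blastocysts, with no overlap. It rose by 0.78 against het (SE 0.16, limma adjusted p = 0.00396), 0.66 against WT_flfl (SE 0.18, limma adjusted p = 0.0201) and 0.71 against M_KO (SE 0.16, limma adjusted p = 0.0106). Of the polyubiquitin and ubiquitin fusion genes, Ubb stood at 5644, 4583 and 5424 CPM in MZ_KO and at 2891 to 4134 CPM elsewhere, and Rps27a at 645, 518 and 493 CPM and at 296 to 385 CPM elsewhere. Ubb rose by 0.59, 0.63 and 0.43 and Rps27a by 0.69, 0.64 and 0.54 against het, WT_flfl and M_KO, each past the threshold. Uba1, the main ubiquitin-activating enzyme, fell by 0.79 against het and by 0.89 against M_KO, with 220, 482 and 289 CPM in MZ_KO and 383 to 840 CPM elsewhere, overlapping. Ubqln4, a shuttle receptor, stood at 11.7, 24.8 and 26.8 CPM in MZ_KO and 33.2 to 81.3 CPM elsewhere, and fell in all 3 comparisons, with log2 fold changes of -1.56, -1.67 and -1.55 against het, WT_flfl and M_KO. No gene of this list passed in the M_KO, het or morula comparisons.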

How the data were processed

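Complementary DNA of single embryos was made with the SMART-Seq Ultra Low Input kit and sequenced on an Illumina HiSeq, per the labels' protocols. The submitters' processing notes name cutadapt 1.14, Bowtie2 2.2.9 and RSEM 1.3.1 with GRCm38 and mm10; their settings are not stated, and the kit does not mark strand. For each stage the authors deposited a table whose values are log2, and each table was scaled on its own. The values behaved as log2 CPM with an offset of 0.5 reads; removing it gave whole reads for 100% of values within 0.01 reads. Rows naming no gene took at most 0.0113% of reads. Of 28 labelled samples 27 had a column, and a second library of blastocyst het 3, in batch 2, was not analysed here.

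Symbols came from GENCODE M21. Genes with 10 CPM or more in 3 or more embryos were tested (9585 in blastocysts, 9953 in morulae) on log2(CPM + 1) with limma 3.58.1 in R 4.3.3, 1 fit per stage with a trended variance, two-sided, Benjamini-Hochberg adjusted over all genes tested; a fold change on this scale understates that of low genes. Levels per kilobase use the length of the principal transcript (the best APPRIS level, then the longest), and near-identical transcripts were sought with minimap2 2.31-r1302. The tests were checked on simulated counts. Values in every embryo are given for Psmd1, Psmd6, genes called in 2 or more comparisons and those with the largest change; other members by range. Members, lists and rules were chosen with earlier results of these data known. Alternatives were another pseudocount, filter and scaling, voom weights, fewer groups, a replicate block and embryos left out. Replicates are separate embryos per the labels. Some called genes of the pathway list are not reported here by name.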

Additional observations from a re-analysis of the deposited data

Results flagged for a closer look

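The values of the 11 genes with values in every embryo were checked for an embryo apart from its group, in groups of 4 to 10 embryos. The blastocyst MZ_KO and WT_flfl groups and the morula het group, of 3 embryos each, were not checked. Blastocyst het 6 stood below the other het embryos in Psma5, at 457.72 CPM where the nearest had 591 CPM, and in Psmc5, at 619.33 CPM where the nearest had 781 CPM. Morula MZKO 1 stood below the other MZKO embryos in Psmc5, at 324.83 CPM where the nearest had 604 CPM. Chance flags about 1 in 20 groups; over all members and groups of 4 to 10 embryos, 14 of 190 values were past the critical value, of which 3 were in het 6 and 4 in MZKO 1.

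Sem1 was the gene of the pathway list whose change differed between the stages, by 1.32 on the log2 scale (limma adjusted p = 0.0178), higher in blastocysts. Stage and batch cannot be told apart in it, and it was lost without blastocyst MZ_KO 2 or without morula het 7.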

How the results depend on the processing

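Outside the replicate block, the 37 calls of proteasome genes gave 581 values under the alternatives, of which 466 kept their call and none changed sign; 14 calls were kept under all of these. Whether depth limits the calls was not tested; Psmb9 rested on 37 to 456 reads per blastocyst.

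Counts of called members ranged from 3 to 11 against WT_flfl, 13 to 22 against het, 2 to 5 against M_KO and 0 to 13 for the difference between stages when single embryos were left out, and were 0 throughout for the M_KO, het and morula comparisons. Leaving out WT_flfl 1 and het 6 together, which also removes embryos from the fit, gave 4, 12 and 3 members against WT_flfl, het and M_KO; the last was chosen after seeing the data. Against M_KO the count was 3 with a filter of 1 CPM, with no filter and with only the 2 groups compared. For the difference between stages it was 1 with unscaled read totals, 2 with median-ratio scaling and 14 without morulae MZKO 1 and het 1, also chosen after seeing the data. The cause of these changes was not tested. The shares of all genes called under these settings are not given, so the counts have no background, nor do those of the pathway list below.

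Counts of called genes of the pathway list ranged from 3 to 5, 4 to 7 and 2 to 7 against WT_flfl, het and M_KO and from 0 to 5 for the difference between stages when single embryos were left out. It was 4 against het without WT_flfl 1 and het 6, and 5 for the difference between stages without morulae MZKO 1 and het 1.

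With the embryo number as a replicate block, 0 members and 0 genes of the pathway list were called against WT_flfl, het and M_KO. The numbers were not found to pair embryos: same-numbered embryos had correlations of their deviations from -0.186 to 0.00577 in blastocysts and from -0.12 to 0.734 in morulae, and the block uses up most residual degrees of freedom.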

Other observations

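A gene of the pathway list called in 1 comparison was Zfand2a. Zfand2a, a stress-inducible factor that binds the proteasome, stood at 80.2, 80.3 and 76.4 CPM in MZ_KO and at 19.96 to 68.0 CPM in the other blastocysts, with no overlap, and rose by 1.49 against M_KO (SE 0.29, limma adjusted p = 0.00373). It was named after its values were seen.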
